A study of Bos taurus with 16 samples.

Results

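The effect of rumen-protected methionine (RPM) on endometrial DNA methylation was examined in postpartum dairy cows that did not become pregnant. The comparison set the 4 MET_noP libraries (library numbers 13, 17, 25 and 29) against the 4 CON_noP libraries (12, 16, 24 and 28), which together make up 8 of the 16 libraries of the study, chosen by the group name above each column. The other 8 libraries come from cows that became pregnant on RPM (MET_P) or on the control diet (CON_P). The cows were multiparous Holstein-Friesians, and the MET_noP cows received RPM every day from day 12 after calving while the CON_noP cows had the control diet without it. Both groups shared everything else that the labels give. The cows were inseminated at a heat 50 to 64 days postpartum, the endometrium was sampled with a cytobrush 4 to 8 h later, and no pregnancy followed. A cytobrush collects a mixture of luminal epithelial cells, leukocytes and other cells, and DNA was isolated from more cows than there are libraries. The sources used here do not give the number of cows behind a library, so the spread between libraries may be partly technical and every p-value measures only that spread. In such bulk DNA a different mix of cells and a different methylation level within cells cannot be told apart.

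Methionine is the precursor of S-adenosylmethionine, the methyl donor that DNA methyltransferases use to methylate cytosines, mostly where a cytosine is followed by a guanine (CpG). In the rumen, free methionine is broken down by microbes, which is why it is given to cows in a protected form. Once the methyl group has been given away, homocysteine remains, which is remethylated to methionine with methyl groups from folate or betaine. CpG islands, the CpG-dense stretches at many gene starts, are mostly unmethylated, whereas gene bodies, repeats and most other CpGs are highly methylated. In reduced representation bisulfite sequencing (RRBS), MspI fragments enrich the CpG-dense parts of the genome, and bisulfite converts unmethylated cytosines so that the share of unconverted reads gives the methylation level of a site.

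The methylation level, in percent, was available for 199395 sites in every library, of which 189036 lay on the 29 autosomes, 10346 on chromosome X and 13 in the mitochondrial genome. Of the autosomal sites, 64.5% carried a gene name. Only sites with a valid value above zero in every library had been kept, and the lowest value was 1%, so sites without methylation are not part of these data. The read depth of a single site or library is unknown beyond the authors' minimum of 10 reads per position. No interval can therefore be given for a single percentage. The paper gives mean read counts per group, which were higher in CON_noP than in MET_noP, lowest in CON_P and highest in MET_P. A MET_noP library, number 17, stood apart from the rest of its group in several measures, and values without it are given where they matter.

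Mean methylation over the autosomal sites was higher in MET_noP than in CON_noP by 1.29 percentage points, which lay within the spread of the libraries. It was 64.5%, 62.7%, 64.5% and 63.4% in CON_noP libraries 12, 16, 24 and 28, with a mean of 63.8% ± 0.914 (SD, n = 4). It was 65.4%, 63.6%, 65.7% and 65.5% in MET_noP libraries 13, 17, 25 and 29, with a mean of 65.1% ± 0.973 (SD, n = 4). Of the MET_noP libraries, 3 lay above every CON_noP library, and library 17 lay among them (two-sided exact permutation test, p = 0.114, adjusted p = 0.321 over 15 measures with 1 value per library). With 4 libraries in each group, 0.0286 is the smallest p that this test allows. Without library 17, the only MET_noP library among the CON_noP libraries, the difference was 1.77 percentage points. The groups were then separate by the choice of the library left out, so the test of that set was not used. The lowest value with 1 library left out was 0.921 percentage points, without CON_noP library 16 (exact permutation test, p = 0.257). In cows that became pregnant, the same difference (MET_P minus CON_P) was 0.304 percentage points, and the diet differences with and without pregnancy did not differ beyond the spread (exact permutation test of the interaction, p = 0.368, adjusted p = 0.668).

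The direction was the same on all autosomes. The mean was higher in MET_noP on 29 of 29 autosomes, by 0.795 to 3.16 percentage points, and the libraries of the groups overlapped on every one of them. Chromosome 27 had the largest difference, and without a CpG-dense region on it the value was 0.918 percentage points over the remaining 3226 sites. In the pregnant cows the mean was higher with RPM on 20 autosomes. On chromosome X the CON_noP libraries averaged 40.2% ± 2.00 and the MET_noP libraries 41.7% ± 2.00 (SD, n = 4 each), or 1.49 percentage points more (p = 0.343 by the exact permutation test, adjusted p = 0.367).

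Among classes of methylation level, sites of intermediate methylation had the largest differences in percentage points. The sites were sorted into classes by their mean over the 8 libraries of CON_P and MET_P, which were not part of the comparison. Over the 23688 autosomal sites at 20% to 40%, the mean was 26.97%, 25.5%, 29.2% and 25.7% in CON_noP and 30.6%, 23.1%, 35.7% and 32.2% in MET_noP libraries 13, 17, 25 and 29. Library 17 had the lowest value of all 8, and the other three the highest values. The group means lay 3.57 percentage points apart and did not pass the test (p = 0.257 by the exact permutation test, adjusted p = 0.321). The difference turned on single libraries. It was 5.99 percentage points without library 17 and 1.81 without MET_noP library 25 (exact permutation test, p = 0.514 without library 25). Without library 17 the separation of the groups again followed from the library left out, and the test was not used. In the pregnant cows the same class was lower with RPM, by -1.84 percentage points, and the interaction did not pass the test (exact permutation test, p = 0.197, adjusted p = 0.668). Sites at 40% to 60% differed by 2.84 percentage points, sites at 60% to 80% by 1.75, sites under 20% by 1.13 and the 94845 sites at 80% or more by 0.403 percentage points, with exact permutation p-values from 0.200 to 0.257. Sites above 20% made up 80.04% ± 1.38 of the autosomal sites in CON_noP libraries and 81.8% ± 2.80 in MET_noP libraries (SD, n = 4 each; p = 0.343 by the exact permutation test).

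The difference was larger in value at sites with many measured neighbours than at isolated ones. Over the 37964 autosomal sites with 10 or more other sites within 250 bp, CON_noP averaged 61.0% ± 1.72 and MET_noP 63.5% ± 1.59 (SD, n = 4 each), which left 2.44 percentage points between them (p = 0.0857 by the exact permutation test). It was 1.06 percentage points with 1 to 9 neighbours (p = 0.143 in the exact permutation test) and 0.452 with none (exact permutation test, p = 0.229). None of these differences passed the test, and whether the classes differ from each other was not tested. The classes of level and of neighbours were not independent. Among sites under 20%, the isolated ones differed by -0.00340 percentage points and those with 10 or more neighbours by 3.13, or by 2.69 without the CpG-dense region of chromosome 27. Sites with and without an annotated gene differed by 1.31 and 1.25 percentage points (exact permutation test, p = 0.0857 and 0.171). All 15 adjusted p-values lay between 0.321 and 0.571. These directions depend on the scale that is held fixed: with the libraries set to the same median M value (a log2 ratio of methylated to unmethylated, defined with the site tests), the M value of the classes under 20% and at 80% or more, with and without a gene, and with fewer than 10 neighbours was lower in MET_noP, and each was again within the spread. Promoters, exons, introns and CpG islands as such were not analysed here.

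**Figure D1:**
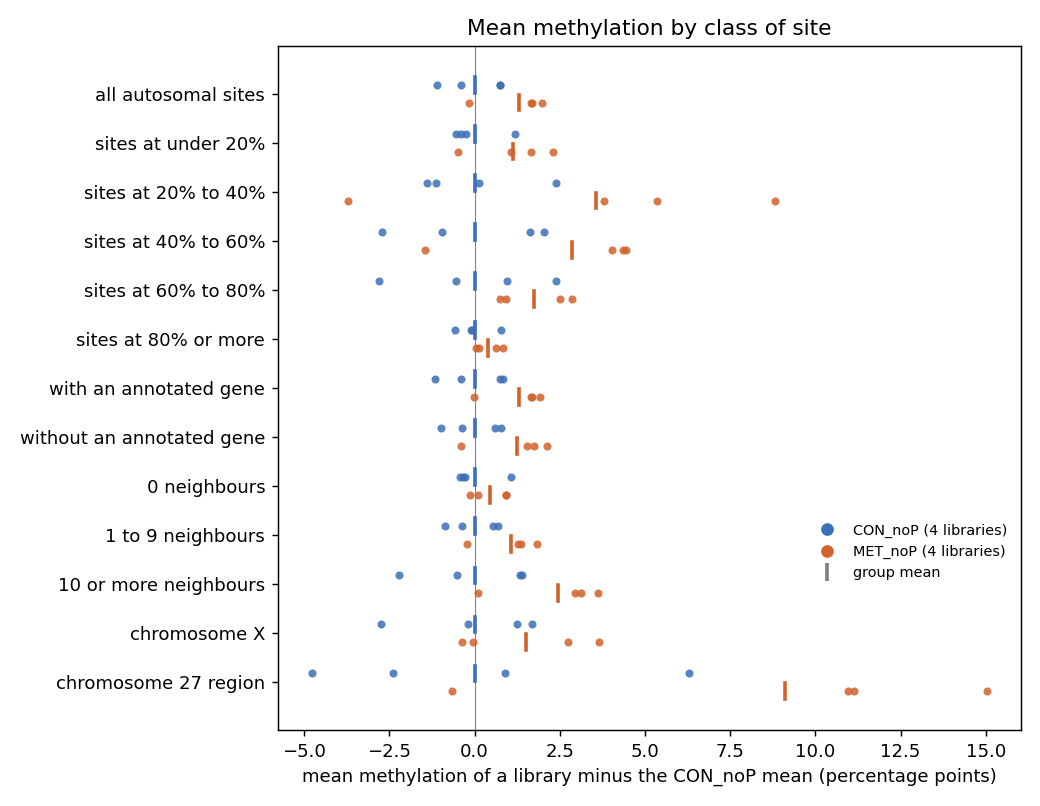
Mean methylation of each library in each class of site, plotted on the x axis as percentage points above or below the CON_noP mean of that class, with 1 point per library (4 CON_noP, blue; 4 MET_noP, orange) and a bar for the group mean. The MET_noP mean lies to the right of the CON_noP mean in each class, by 0.403 to 9.11 percentage points, and the libraries of the groups overlap in each class.

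The most CpG-dense stretch of the table, with 1214 sites at chr27:6219034-6225679 (ARS-UCD1.2), had the largest difference of any class in percentage points. Its mean was 21.0%, 9.92%, 15.6% and 12.3% in CON_noP libraries 12, 16, 24 and 28 and 29.7%, 14.04%, 25.9% and 25.6% in MET_noP libraries 13, 17, 25 and 29. Here 3 MET_noP libraries lay above all CON_noP libraries, while library 17 lay between them. The group means of 14.7% ± 4.79 and 23.8% ± 6.78 (SD, n = 4 each) lay 9.11 percentage points apart (p = 0.0857 by the exact permutation test, adjusted p = 0.321). Of its sites, 98.3% had a higher mean in MET_noP. These neighbouring sites share their libraries and are not independent. The study singled the region out by its many sites that differed by pregnancy outcome in these samples. CON_noP was among the groups it compared, so the difference in this region is not independent evidence. The 31 sites that carry a gene name there belong to RF00002, the Rfam family of 5.8S ribosomal RNA, at chr27:6222648-6222800, and all of them were higher in MET_noP, by 9.98 percentage points on average. Ribosomal RNA genes are present in many copies, so reads from other copies may be counted there.

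The libraries within a group differed about as much as libraries of different groups. Over the autosomal sites, the mean absolute difference between 2 libraries was 7.56 percentage points among the 6 pairs of CON_noP libraries (6.57 to 8.69), 8.11 among the 6 pairs of MET_noP libraries (6.57 to 10.1) and 7.93 among the 16 pairs between the groups (6.64 to 9.29). The most distant pair was MET_noP libraries 17 and 25, within 1 group, and MET_noP library 29 was as close to CON_noP library 24 (6.64) as to MET_noP library 13 (6.57). The spread, as the mean distance of a library from the mean of the other three of its group, averaged 6.22 ± 0.733 over CON_noP and 6.65 ± 1.16 over MET_noP libraries (SD, n = 4 each; p = 0.571 by the exact permutation test). The order of the groups turned when CON_noP library 24 or 28 was left out (-0.151 and -0.338 percentage points). In the pregnant cows the spread was 7.41 in CON_P and 5.58 in MET_P. The interaction of 2.26 percentage points had an exact permutation p of 0.0184 that did not pass adjustment (adjusted p = 0.275). By the paper's mean read counts, CON_P was the group with the fewest reads and MET_P that with the most. The part of read depth in this spread was not tested. At single autosomal sites the median SD between libraries was 5.01 percentage points in CON_noP and 5.16 in MET_noP. In the class at 20% to 40% it was 8.15 and 10.5, and the SD was larger in MET_noP at 65.5% of the sites.

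**Figure D2:**
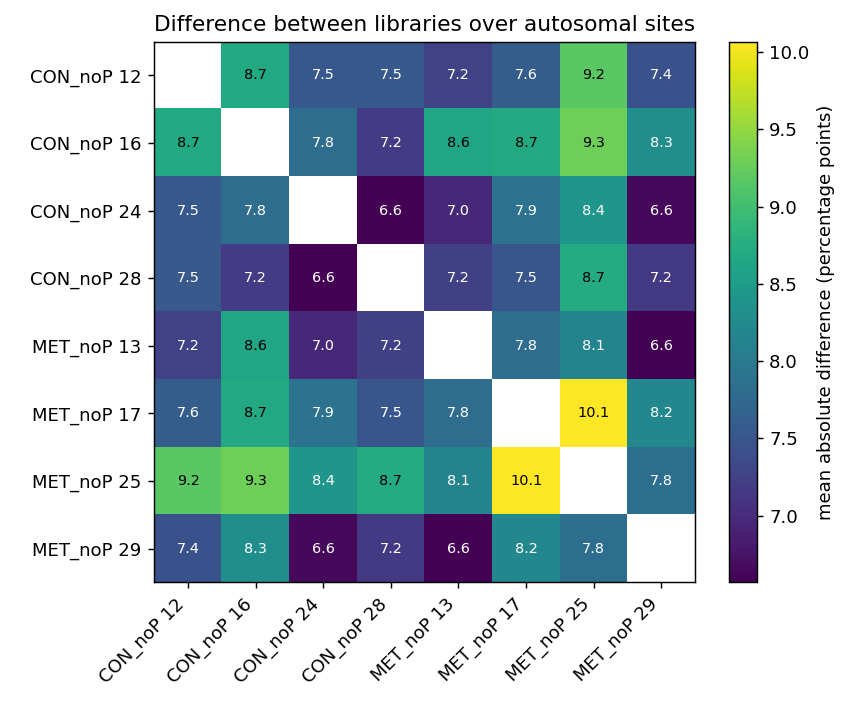
Mean absolute difference in methylation level over the autosomal sites for each pair of the 8 libraries, in percentage points, with CON_noP libraries first and MET_noP libraries after them on both axes. Pairs within CON_noP (6.57 to 8.69), within MET_noP (6.57 to 10.1) and between the groups (6.64 to 9.29) cover about the same range, and the pair of MET_noP 17 and 25 is the most distant.

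Some genes with at least 5 sites varied widely among the libraries of 1 group. In CON_noP, ABTB1 ranged from 33.2% in library 16 to 84.6% in library 12, RNF39 from 17.6% to 65.3% and BAIAP2L2 from 17.7% to 59.6% in the same libraries. Library 16 was lowest in 7 of the 8 most variable genes of CON_noP, and over all autosomal genes it was the lowest of its group in 34.5%. In MET_noP, TNNT2, which encodes cardiac troponin T, ranged from 32.8% in library 17 to 93.3% in library 13, and STARD4, a cholesterol transfer protein, from 13.8% in library 17 to 66.8% in library 25. PTGES, the prostaglandin E synthase, was at 21.1% in library 17 and at 59.7% to 73.2% in the other three. Library 17 was lowest in 6 of the 8 most variable MET_noP genes and in 36.4% of all autosomal genes.

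No single site differed between MET_noP and CON_noP after correction for the number of sites. For the test with limma, the methylated percent was divided by the unmethylated percent, after an offset of 1 percentage point on either, and the log2 of that ratio was taken as the M value of the site. With limma, 0 of 199395 sites (0.0%) had an adjusted p under 0.05, the lowest adjusted p was 0.0739, and 10222 (5.13%) passed at an unadjusted p of 0.05. Of these 10222 sites, 6698 were higher (3.36% of all sites) and 3524 lower (1.77%) in MET_noP. Among autosomal sites, 9885 passed that threshold (5.23%), 6447 of them higher (3.41%) and 3438 lower (1.82%), and 57.2% of all autosomal sites had a higher mean in MET_noP, against 52.8% for the same contrast in the pregnant cows. The groups did not overlap at 5155 autosomal sites (2.73%), of which 3446 were higher (1.82%) and 1709 lower (0.904%). The median M value was 0.13 higher in MET_noP over sites and 0.09 over genes. With the libraries set to the same median M value, 48.6% of the sites that then passed at an unadjusted p of 0.05 were higher, but not in every class. The share was 46.1% at sites under 20% and 44.2% at 80% or more, and it was 72.6% at 20% to 40%, 66.7% at 40% to 60% and 60.8% at 60% to 80%. It was also above the pooled value at sites with 10 or more neighbours (61.9%) and in the CpG-dense region of chromosome 27 (97.1%).

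Large differences ran mostly towards higher methylation. Of the 189036 autosomal sites, 1440 were higher in MET_noP by a mean of at least 20 percentage points and 268 were lower by as much. The groups did not overlap at 468 and 82 of them. Such sites were ranked within each direction by their limma p. Among the lowest p-values of those that were higher was a site in THSD4, a secreted thrombospondin-domain protein of the fibrillin matrix, at chr10:18577853. It was methylated at 49.1%, 39.1%, 43.1% and 34.1% in CON_noP libraries 12, 16, 24 and 28 and at 84.4%, 94.7%, 75% and 90% in MET_noP libraries 13, 17, 25 and 29. The groups were far apart, by 44.7 percentage points, yet the CON_P libraries ranged from 25% to 97.6% and the adjusted p in limma was 0.241. Of the 11 THSD4 sites, this was the only one that was higher without overlap.

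In TRAF3IP1 and PRELP, runs of neighbouring sites had higher levels in MET_noP. In TRAF3IP1, an intraflagellar transport protein of cilia, 9 of 73 sites were higher in MET_noP without overlap, by 21.7 to 26.9 percentage points, all within chr3:117645880-117645937. At position 117645907 the CON_noP libraries were at 85.7%, 63.0%, 81.0% and 54.7% and the MET_noP libraries at 95.9%, 97.4%, 97.5% and 98.7% (limma, adjusted p = 0.231). In PRELP, a small leucine-rich proteoglycan of connective tissue, 7 of 12 sites were higher without overlap, within chr16:1243356-1243452. At position 1243380 PRELP was at 5.13%, 3.70%, 6.67% and 1.89% in CON_noP and at 23.7%, 15.6%, 38.5% and 27.6% in MET_noP (limma, adjusted p = 0.339), whereas in the pregnant cows the level was lower with RPM, by -8.33 percentage points. A site in CCT8L2, a chaperonin-like gene, at chr4:114862568 was at 52.8% to 81.3% in CON_noP and at 96.8% to 100% in MET_noP (limma, adjusted p = 0.153). Sites a few bases apart are read on the same fragments, so they do not count as separate evidence. Over all autosomal sites, 1.82% were higher without overlap, and TRAF3IP1 and PRELP were named because they held such a site.

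Among the sites that were lower in MET_noP, 4 of the 5 with the lowest p had a CON_noP mean of 94.6% or more. A site in HIRA, a histone H3.3 chaperone, at chr17:72682577 was at 86.5%, 97.5%, 97.5% and 96.9% in CON_noP and at 66.0%, 48.9%, 84.1% and 46.1% in MET_noP. The groups came within a few percentage points of each other in CON_noP library 12 and MET_noP library 25. A site in NOTCH4, an endothelial Notch receptor, at chr23:27175252 was at 95.7% to 100% in CON_noP and at 40.0%, 92.6%, 76.5% and 25.8% in MET_noP, a mean difference of -39.2 percentage points with wide spread. Sites in ARHGAP12 (chr13:33529234, -23.9 percentage points) and PPP1R12B (chr16:80153981, -20.4), which encode a GTPase-activating protein and a subunit of myosin phosphatase, were similar. A site in RASAL2, a Ras GTPase activator, at chr16:59871982 was at 75% to 87.5% in CON_noP and at 45.8% to 64.0% in MET_noP. The adjusted p of these sites in limma was 0.413 to 0.744.

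At the level of genes, more genes had higher than lower methylation in MET_noP, and none passed the correction. With limma on the mean of each gene, 0 of 8707 genes (0.0%) had an adjusted p under 0.05, the lowest being 0.530, and 557 (6.4%) passed at an unadjusted p of 0.05, 413 higher (4.74%) and 144 lower (1.65%). Among the 8360 autosomal genes, 530 passed that threshold (6.34%), 393 higher (4.7%) and 137 lower (1.64%), and 62.8% had a higher mean in MET_noP, by a median of 0.616 percentage points. For 313 autosomal genes (3.74%) the groups did not overlap, 240 higher (2.87%) and 73 lower (0.873%). With centred libraries, 236 autosomal genes were higher and 244 lower at that threshold, and without library 17 the numbers were 628 and 167. All genes named below are therefore ranked and not called.

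The genes with the lowest p among those with at least 5 sites and higher methylation in MET_noP were led by CX3CL1, the gene of fractalkine, a membrane-bound chemokine that draws in monocytes, NK cells and T cells. CX3CL1 (6 sites, chr18:25383247-25387690) was at 10.2%, 6.92%, 7.21% and 7.45% in CON_noP and at 15.8%, 23.6%, 24.7% and 15.2% in MET_noP. The lowest MET_noP library was well above the highest CON_noP library, and the difference was 11.9 percentage points (M difference 1.40 ± 0.24 SE, limma, adjusted p = 0.530). The 5 sites at chr18:25383247-25383305 were each non-overlapping, with differences of 12.04 to 15.9 percentage points, while the sixth, at 25387690, was at 11.3% in CON_noP and 11.2% in MET_noP. In the pregnant cows CX3CL1 was at 19.4% in CON_P and 14.4% in MET_P. The interaction was 1.87 ± 0.41 (SE) in M (limma, adjusted p = 0.763).

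ADI1, acireductone dioxygenase, catalyses a step of the methionine salvage pathway, and its 7 sites (chr8:111044940-111045014) were almost fully methylated in both groups. ADI1 was at 95.0%, 96.7%, 95.2% and 97.0% in CON_noP and at 98.8%, 98.6%, 98.3% and 98.2% in MET_noP, a difference of 2.48 percentage points without overlap (M difference 1.01 ± 0.18 SE, limma, adjusted p = 0.530). TAT, tyrosine aminotransferase, which starts tyrosine breakdown, was at 9.93% to 14.5% in CON_noP and at 18.1% to 29.3% in MET_noP over 5 sites. The difference in TAT rested mainly on 1 site at chr18:39490339, which differed by 35.8 percentage points, while the other sites differed by less. TRARG1, which acts in GLUT4 trafficking, was at 80.1% to 89.1% in CON_noP and at 92.2% to 93.6% in MET_noP. ENSBTAG00000054394, which has no description, was at 81.5% to 89.3% and at 92.2% to 93.4%. ERCC5 (a DNA repair endonuclease), STX16 (a Golgi syntaxin) and FUBP3 (a single-strand binding protein) were at 93.3% or more in every library of both groups and differed by 3.21, 1.49 and 3.55 percentage points. The groups did not overlap for any of these genes.

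In the other direction, TRIM15, a tripartite-motif E3 ligase, had the lowest p. TRIM15 (8 sites, chr23:28803605-28813196) was at 72.4%, 62.1%, 68.3% and 69.9% in CON_noP and at 58.2%, 57.5%, 53.4% and 54.8% in MET_noP, a difference of -12.2 percentage points without overlap (M difference -0.74 ± 0.16 SE, limma, adjusted p = 0.564). All 8 TRIM15 sites had a lower mean in MET_noP, and the groups did not overlap at 1 of them, position 28803621. The 4 sites at the start of the interval, to position 28803634, had means of 30.1% to 55.8% in CON_noP and 17.5% to 28.2% in MET_noP, whereas the 4 sites from 28813159 on were above 80% in both. In the pregnant cows TRIM15 was also lower with RPM, by -6.26 percentage points (limma, adjusted p = 0.734). C25H16orf91 was at 26.4% to 33.3% in CON_noP and at 21.3% to 23.1% in MET_noP.

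The other genes of this direction were highly methylated. GRN, the granulin precursor of lysosomes and a growth factor, was at 93.3% to 95.8% in CON_noP and at 92.7%, 88.8%, 85.7% and 92.6% in MET_noP (-4.81 percentage points). Of the 5 GRN sites, 3 had a higher mean in MET_noP and 2 a lower one, with -22.5 percentage points at 1 site. RASAL2 was at 93.3% to 96.3% in CON_noP and at 91.9% to 92.6% in MET_noP, with most of the difference at the site described above. POLR1A, the large subunit of RNA polymerase I, was lower by -1.22 percentage points and C11orf53 by -3.37. Of the 7 POLR1A sites, 3 had a higher mean and 4 a lower one, with -7.93 percentage points at 1 site. ENSBTAG00000053793 and ENSBTAG00000054515, without description, were lower by -6.74 and -4.14 percentage points, and in the pregnant cows they were lower with RPM too, by -8.23 and -4.78 (limma, adjusted p = 0.682 and 0.681). The adjusted p of the genes in this direction was 0.564 to 0.745.

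**Figure D3:**
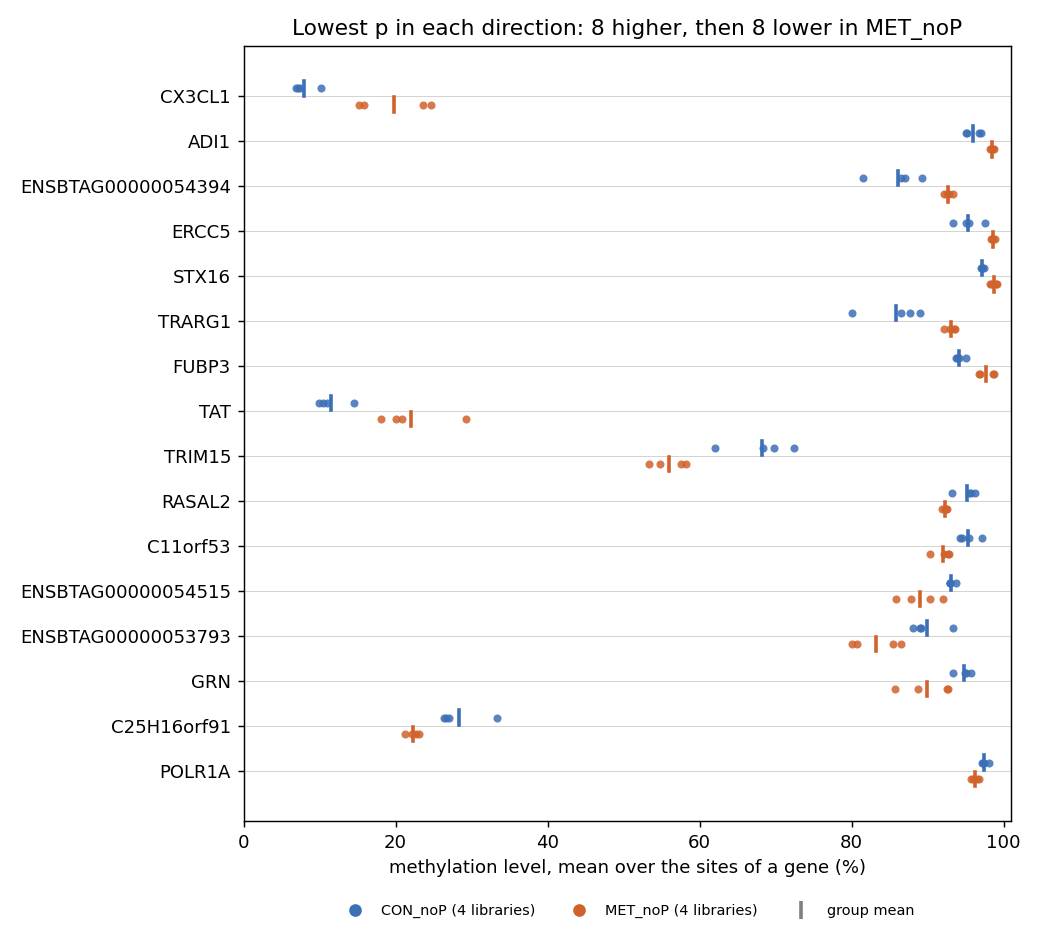
Methylation level of the 8 genes with the lowest p in each direction, as the mean over the sites of the gene in percent, with 1 point per library (CON_noP, blue; MET_noP, orange) and a bar for the group mean. The libraries do not overlap in any of the 16 genes, by which p ranked them, and CX3CL1, TAT, TRIM15 and C25H16orf91 are the ones away from full methylation.

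**Figure D4:**
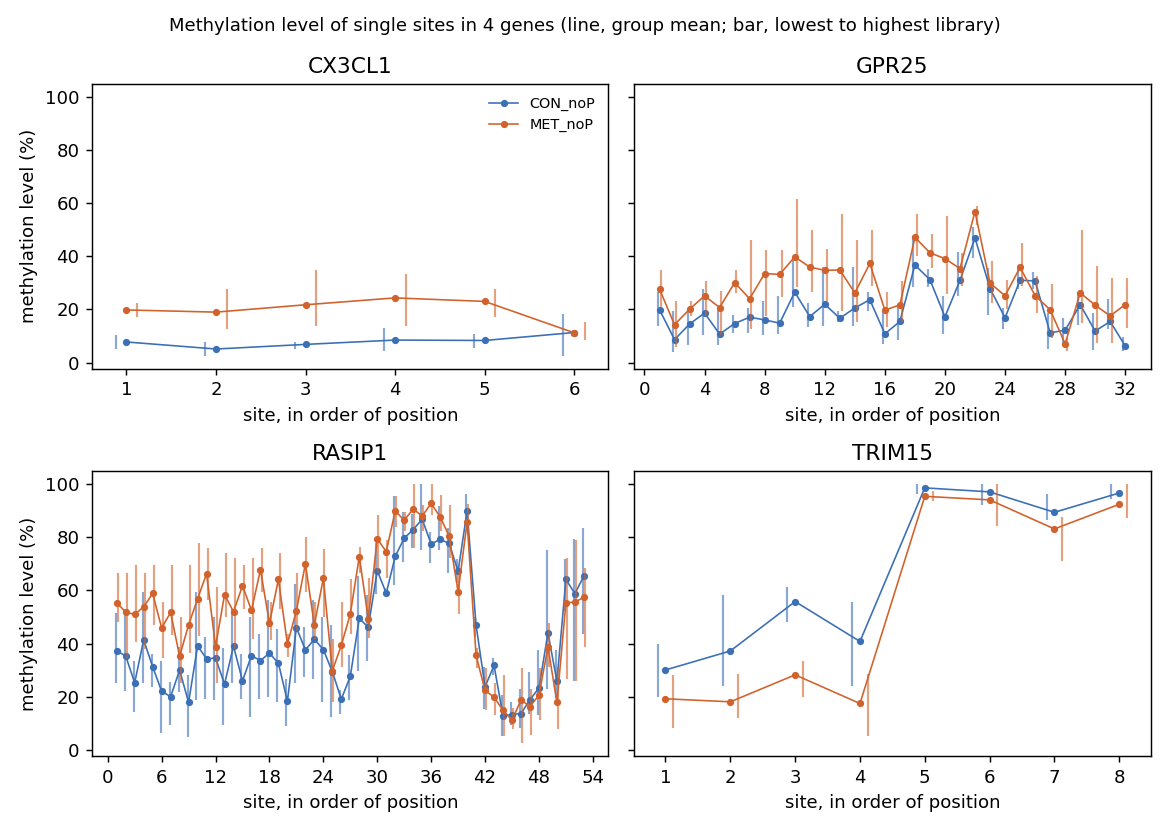
Methylation level in percent at each measured site of CX3CL1, GPR25, RASIP1 and TRIM15, in order of position, with the group mean as a line and the lowest to highest library of each group as a bar (4 CON_noP libraries, blue; 4 MET_noP, orange). The groups separate at the first 5 sites of CX3CL1 and at 17 of 34 sites in a run near the start of the RASIP1 interval. In the opposite direction, the group means of TRIM15 lie furthest apart at its first 4 sites, and the libraries do not overlap at 1 of them.

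Of the genes that the study names for the diet, 14 autosomal genes were measured and 14 had a higher mean in MET_noP, or 13 with centred libraries. At an unadjusted p under 0.05 there were 3 (KLHL35, NEURL1 and RASIP1), beside 4.7% of all autosomal genes higher at that p, and 0 at an adjusted p under 0.05. They were chosen by the study on these samples, so their direction is not independent evidence. Their median difference was 6.10 percentage points, beside 0.616 for all autosomal genes, and 2.90 in the pregnant cows. RASIP1, a Rap effector of endothelial junctions (53 sites, chr18:55364819-55372585), was at 47.6%, 32.7%, 46.7% and 41.3% in CON_noP and at 53.6%, 50.7%, 58.5% and 50.9% in MET_noP, a difference of 11.3 percentage points without overlap (limma, adjusted p = 0.747). In RASIP1, 17 of the 34 sites within chr18:55364823-55365216 were higher without overlap, by 15.2 to 35.7 percentage points. The remaining sites there had a higher mean but overlapped, and most lay 1 bp from a site that did not. Positions 1 bp apart are the 2 strands of a CpG, so the 34 sites are not as many separate CpGs. Most of the sites without overlap were the second position of such a pair. Position 55364843 differed by 4.33 percentage points, for example, and 55364844 by 33.6. Elsewhere in the gene, 2 sites were lower without overlap. KLHL35, a Kelch-like adaptor, was at 36.5% to 44.3% in CON_noP and at 62.7%, 39.9%, 58.1% and 54.1% in MET_noP, and all 41 sites had a higher mean. The KLHL35 value of library 17 lay among the CON_noP libraries.

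NEURL1 and KIF14 had large mean differences with wide spread in CON_noP. NEURL1, an E3 ligase of Notch ligands, was at 73.8%, 31.2%, 59.5% and 59.6% in CON_noP and at 80.3%, 74.3%, 74.4% and 69.6% in MET_noP (18.6 percentage points, limma, adjusted p = 0.757). KIF14, a mitotic kinesin, was at 60.8%, 48.5%, 91.7% and 56.0% in CON_noP and at 94.0%, 82.2%, 81.5% and 83.8% in MET_noP (21.1 percentage points, limma, adjusted p = 0.825). CON_noP library 24 was above 3 of the MET_noP libraries in KIF14. SOX9, a transcription factor of endometrial glands, differed by 11.9 percentage points (limma, adjusted p = 0.820), and in the pregnant cows it was higher with RPM by 17.1. SEMA4B, a semaphorin, differed by 9.79 percentage points, with MET_noP library 25 at 67.01% and the other seven libraries at 38.1% to 50.3%. KIF26A, ZNF274, ZNF787, ATP8B1, MTCL1, PXDN and PTGIS had differences of 1.91 to 6.46 percentage points and overlapped. AGO2, the slicer argonaute, differed by 1.02 percentage points, and its M difference of 0.08 had the opposite sign with centred libraries (-0.0088).

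**Figure D5:**
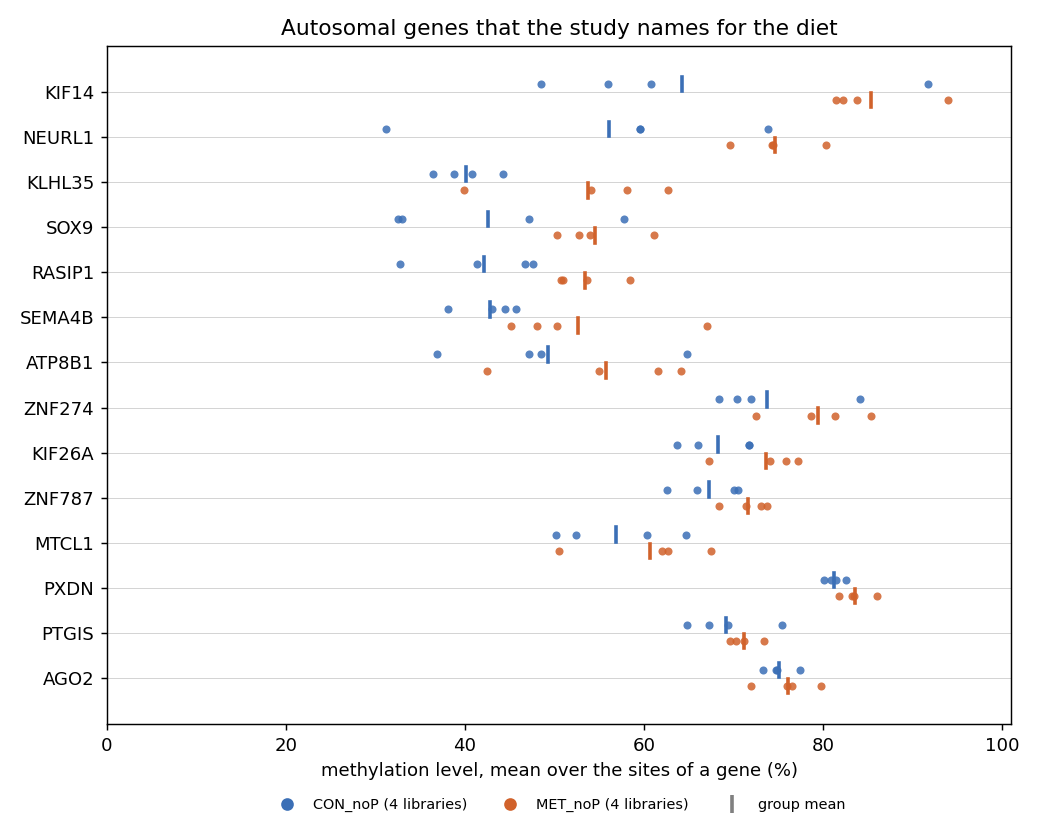
Methylation level of the autosomal genes that the study names for the diet, as the mean over the sites of each gene in percent, ordered by the difference between MET_noP and CON_noP, with 1 point per library (CON_noP, blue; MET_noP, orange) and a bar for the group mean. The MET_noP mean is higher in 14 of 14 genes, from 21.1 percentage points in KIF14 to 1.02 in AGO2, and the libraries are separate only in RASIP1.

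Genes of the methionine cycle and of one-carbon metabolism were about as often higher as lower. Of 21 measured autosomal members, 12 had a higher and 9 a lower mean in MET_noP, 1 (ADI1) had an unadjusted p under 0.05 and 0 passed the correction, beside 62.8% higher and 4.7% higher at that p over all autosomal genes. The median difference was 0.296 percentage points. MAT2A, the methionine adenosyltransferase of most tissues, was at 8.46% ± 1.17 (SD, n = 4) in CON_noP and 8.52% ± 3.71 in MET_noP. MAT1A, the form of the liver, was at 97.2% ± 1.21 and 96.9% ± 1.04. The differences in this list ranged from -8.74 to 5.78 percentage points. The most positive was that of the folate receptor FOLR2, which was within the spread.

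Of 15 autosomal genes that write, erase or read DNA methylation, 12 had a higher mean in MET_noP (9 with centred libraries), 2 passing at an unadjusted p of 0.05 and 0 after correction, beside 62.8% higher and 4.7% higher at that p over all autosomal genes. GADD45G, linked to active demethylation, was at 5.16%, 5.51%, 8.47% and 6.25% in CON_noP and at 10.2%, 12.2%, 7.68% and 8.71% in MET_noP over 2 sites, with overlapping groups. ZBTB38, a reader of methylated DNA, was at 96.5%, 80%, 79.3% and 83.7% in CON_noP and at 100%, 92.0%, 95.8% and 96.9% in MET_noP over 3 sites, also overlapping. The methyltransferases DNMT3A (59.3% ± 1.72 against 60.5% ± 2.03) and DNMT3B (61.1% ± 1.55 against 61.2% ± 1.56) and the demethylase TET3 (84.5% ± 3.05 against 87.3% ± 2.46, SD, n = 4 each) did not differ beyond their spread.

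Imprinted genes, expressed from 1 parental copy, had a higher mean in 17 of 22 measured members (14 with centred libraries), with 1 (MEST) at an unadjusted p under 0.05, and 0 with centred libraries, beside the same 62.8% and 4.7% over all autosomal genes. MEST was at 25.4%, 19.7%, 37.5% and 21.6% in CON_noP and at 38.2%, 32.7%, 31.6% and 46.3% in MET_noP, and all 19 of its sites were higher. CON_noP library 24 lay among the MET_noP libraries. GRB10, a growth suppressor, did not overlap (85.1% ± 0.680 and 86.9% ± 1.14, SD, n = 4), while IGF2 (-1.01 percentage points over 63 sites), IGF2R (2.50 over 244 sites) and GNAS (6.12 over 142 sites) overlapped.

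Prostaglandin genes, whose products control luteolysis and uterine contraction, had a higher mean in MET_noP in 14 of 17 measured members (13 with centred libraries), with a median of 1.91 percentage points, 1 at an unadjusted p under 0.05 and 0 after correction, beside 62.8% higher and 4.7% higher at that p over all autosomal genes. Without library 17 there were 3 higher at that p, while over all autosomal genes such genes went from 393 to 628. PTGDS, prostaglandin D2 synthase, was at 49.9%, 45.02%, 48.6% and 47.1% in CON_noP and at 61.1%, 52.9%, 56.4% and 55.4% in MET_noP, without overlap, and 17 of its 18 sites were higher (limma, adjusted p = 0.737). Thromboxane synthase TBXAS1 also did not overlap, at 85.5% ± 1.36 and 87.8% ± 0.663 (SD, n = 4). The receptors PTGER1 and PTGDR2 differed by 16.4 and 13.8 percentage points with SDs of 9.78 to 17.02, and overlapped. Among 28 measured genes of steroid and oxytocin signalling and uterine receptivity, 17 were higher, 1 at an unadjusted p under 0.05 and 0 after correction. That gene was IHH, the progesterone-induced hedgehog ligand of the uterine epithelium (15.1% ± 3.97 and 21.5% ± 2.78, SD, n = 4, 2 sites). The progesterone receptor PGR differed by -0.162 percentage points, the oxytocin receptor OXTR by -2.19 and the oestrogen receptor ESR1 by 4.14, all within the spread. Of 23 amino acid transporters, 15 were higher, and limma gave 0 of them a p under 0.05 before adjustment, with or without centring.

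Markers of the cell types that a cytobrush can hold did not separate the diets. Of 11 leukocyte markers 6 were higher in MET_noP, of 7 epithelial markers 5 and of 5 stromal markers 2. With limma, 0 of the 23 had a p under 0.05 before adjustment. Over all autosomal genes, 62.8% were higher and 6.34% had such a p, so few would be called among so few markers. With centred libraries 4 leukocyte, 2 epithelial and 1 stromal markers were higher. Without library 17, 1 leukocyte marker was lower at that p. The mean over the leukocyte markers was 59.6% to 62.8% in CON_noP and 58.4% to 64.0% in MET_noP, over the epithelial markers 24.96% to 30.4% and 22.7% to 32.1%, and over the stromal markers 39.6% to 44.3% and 39.7% to 44.7%. Library 17 had the lowest and library 25 the highest value of the leukocyte and of the epithelial list among all 8 libraries. PTPRC, the pan-leukocyte CD45, had an SD of 2.25 in CON_noP and 13.5 in MET_noP (means 63.1% and 62.4%). CDH1, the epithelial cadherin, was at 7.25% ± 1.82 and 7.44% ± 2.69 (SD, n = 4). The part of the cell mix in the differences between the diets, or in the position of library 17, was not tested.

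Gene families were grouped by the start of their symbols and read against all autosomal genes, of which 62.8% were higher, 4.7% were higher and 1.64% lower at an unadjusted p under 0.05, and 2.87% were higher without overlap. Of the 31 G protein-coupled receptor symbols (GPR), 21 were higher, 6 at an unadjusted p under 0.05, all without overlap (GPR6, GPR25, GPR52, GPR83, GPR179 and GPRIN1, the last a neurite outgrowth protein and no receptor), and 0 after correction. With centred libraries 14 of the 31 GPR symbols were higher, 5 were higher at that p and 3 lower. GPR25 (32 sites, chr16:79480629-79480772) was at 18.3%, 19.2%, 22.6% and 19.3% in CON_noP and at 31.6%, 25.6%, 31.6% and 27.1% in MET_noP, and 30 of its sites were higher (limma, adjusted p = 0.564). GPR52 was at 91.7% to 96.2% and at 96.6% to 98.4%. Of 32 forkhead factors 17 were higher, with 3 higher and 1 lower at an unadjusted p under 0.05. FOXH1 (48.6% ± 9.90 and 61.6% ± 1.95, SD, n = 4) and FOXK2 (12.7% ± 7.85 and 28.7% ± 12.6, SD, n = 4) were among the higher ones, both with overlapping groups, and FOXJ3 was the lower one (-4.79 percentage points). With centred libraries 11 of the 32 forkhead factors were higher, with 3 higher and 3 lower at that p, and without library 17 the numbers at that p were 2 and 0.

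Of 178 solute carriers 119 were higher, 8 of them at an unadjusted p under 0.05, and 3 were lower at that p, beside 4.7% higher and 1.64% lower at that p over all autosomal genes. With centred libraries the balance of the solute carriers turned, with 83 of 178 higher, and 5 higher and 6 lower at that p. SLC16A3, the lactate exporter MCT4, was higher in MET_noP (71.5% ± 2.93 and 78.8% ± 3.92, SD, n = 4) and in the pregnant cows with RPM (9.03 percentage points). SLC22A8, an organic anion transporter (92.5% ± 2.38 and 97.9% ± 1.58), and SLC4A3, an anion exchanger (78.9% ± 3.58 and 84.8% ± 0.971, SD, n = 4 each), did not overlap. Potassium channel genes were higher in 49 of 66 (3 at an unadjusted p under 0.05: KCNAB2, KCNH8 and KCNJ10), zinc finger ZNF genes in 73 of 96 (5 higher and 2 lower at that p), transmembrane TMEM genes in 55 of 91 (6 and 0), myosins in 26 of 38 (MYL3 and MYO1C), ATPases in 21 of 33 and calcium channel subunits in 12 of 22 (0 each). With centred libraries the members higher were 32 potassium channel genes, 56 ZNF genes, 46 TMEM genes, 16 myosins, 12 ATPases and 5 calcium channel subunits. Among the ZNF genes, ZNF398 was at 88.1% to 94.4% in CON_noP and at 95.7% to 100% in MET_noP, and ZNF212 was lower by -0.974 percentage points. The genes that the study names for both diet and outcome had a higher mean in 14 of 16 autosomal members (8 with centred libraries), again not independent evidence, with LY86 (75.0% ± 1.77 and 79.3% ± 2.20, SD, n = 4), a partner of the receptor CD180 on B cells and myeloid cells, at an unadjusted p under 0.05, and 0 with centred libraries.

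Windows of 1 kb pool neighbouring sites whether or not they carry a gene name. Of 26470 windows with at least 3 sites, 0 passed the correction with limma. At an unadjusted p under 0.05 there were 1491 (5.63%), beside 5.13% of single sites, and 73.6% of these windows were higher. Among windows with at least 5 sites, the lowest p belonged to 5 sites of ENSBTAG00000054394 at chr27:36610575-36610653, at 84.0%, 84.0%, 83.1% and 77.2% in CON_noP and at 96.5%, 94.4%, 98.1% and 93.7% in MET_noP (limma, adjusted p = 0.481). PSD3, an ARF6 exchange factor, followed with 10 sites at chr27:38936950-38936997, at 90.8% to 94.6% and at 97.7% to 98.6%. A window without a gene at chr18:13607247-13607296 was at 75% to 87.04% and at 92.6% to 97.5%. In each of these windows the difference in the pregnant cows had the opposite sign, from -4.33 to -2.27 percentage points. The windows of the other direction, in RAPGEF1 (a Rap1 exchange factor, chr11:101711517-101711601) and in regions without a gene at chr23:49871947-49871998 and chr13:79420806-79420886, were lower by -3.42 to -2.86 percentage points.

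The comparison of MET_P with CON_P shares no library with that of MET_noP with CON_noP, and the sign of the diet difference was the same for about as many genes as it was opposite. Of all autosomal genes, 51.9% had the same sign in MET_P against CON_P, where 59.3% of genes were higher. Of the 393 genes higher in MET_noP at an unadjusted p under 0.05, 256 (65.1%) were also higher with RPM in the pregnant cows, and of the 137 lower genes 53 (38.7%) were also lower. At an unadjusted p under 0.05 in both comparisons were 22 genes higher in both, 4 lower in both and 14 of opposite sign. They came out of 530 and 591 of the 8360 autosomal genes. Of all 8707 genes, 7.25% had such a p in the pregnant cows, and whether the overlap exceeds that share was not tested. Among those higher in both, chosen after their values were seen, were JPT2 (10.05 and 13.2 percentage points), TMEM200C (12.3 and 13.1) and CD82, a tetraspanin (7.37 and 7.11), and TGFB3, a transforming growth factor (5.12 and 6.89). ARHGEF3, a guanine nucleotide exchange factor, was of opposite sign (13.6 and -13.3).

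Whether the diet difference depended on the outcome was tested in limma as an interaction over all 16 libraries. It had an adjusted p under 0.05 at 2 of 199395 sites (0.001%) and for 0 of 8707 genes (0.0%), with 10467 sites (5.25%) and 470 genes (5.4%) at an unadjusted p under 0.05. The first site, at chr17:63124677 and without a gene, was at 97.0%, 93.3%, 98.8% and 87.5% in CON_noP and at 69.1%, 75.0%, 81.1% and 70.8% in MET_noP, while in the pregnant cows it was at 41.7% to 76.3% in CON_P and at 97.2% to 98.9% in MET_P. The second lay in PSD3 at chr27:38936982, inside the window given above. This PSD3 site was at 91.8% to 94.1% in CON_noP, at 98.2% to 100% in MET_noP, at 100% in all CON_P libraries and at 88.9% to 95.7% in MET_P (interaction 5.61 ± 0.64 SE in M, limma, adjusted p = 0.0150). The M scale stretches small differences near 100%, and the PSD3 site differed by 6.6 percentage points in the cows without pregnancy.

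Some genes held many sites at an unadjusted p under 0.05, chosen here after the counts were seen. Of 6791 such autosomal sites with a gene, spread over 3084 genes, 66.3% were higher in MET_noP. Over all autosomal sites, 3.41% were higher and 1.82% lower at that p. MAD1L1, a spindle checkpoint gene, held 25 higher sites among 394 measured (6.35%), SHANK2, a scaffold protein, 19 of 390 (4.87%) and GMDS, an enzyme of fucose synthesis, 18 of 410 (4.39%), while RASIP1 held 18 of 53 (33.96%) and ZNF787 15 of 115 (13.04%). The imprinted potassium channel gene KCNQ1 held 14 lower sites of 340 (4.12%), COL5A1, a fibrillar collagen, 11 of 255 (4.31%) and PTPRN2 13 of 784 (1.66%). These counts rise with the number of measured sites. The PTPRN2 share lay below the 1.82% over all autosomal sites, and those of SHANK2 and GMDS were near the 3.41% for higher sites. Neighbouring sites of a gene are not independent.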

How the data were processed

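Endometrial DNA was profiled by RRBS, and 8 of 16 libraries were compared here. After trimming (Trim Galore) and alignment by Bismark to the ARS-UCD1.2 build, the authors quantified methylation in SeqMonk at positions with at least 10 reads, and positions lacking a valid value or with a level of zero were dropped. What the authors deposited is the percent methylation of each position in each library, not normalized between libraries and without read counts. The authors' logistic regression on counts could therefore not be repeated, and the depth of single sites and libraries is unknown. Columns were assigned by the group name and library number in the header. Because the percentages replace counts, M = log2((percent + 1)/(100 - percent + 1)) was tested with limma 3.58.1 (R 4.3.3, empirical Bayes without trend, Benjamini-Hochberg over 199395 sites or 8707 genes, threshold 0.05). The gene value was the mean over the sites of a gene, for names with at least 2 sites, and RF00001 was left out because its name covers several loci. Where a measure had 1 value per library, a two-sided exact permutation test over 35 splits was used, with adjustment over 15 measures.

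Genes and sites were named by rule: per direction, the 5 lowest p among autosomal annotated sites that did not overlap and differed by at least 20 percentage points, the 8 lowest p among autosomal genes with at least 5 sites, the 3 lowest p among 1 kb windows with at least 5 sites, the genes the study names for the diet, and up to 3 genes per list. Gene lists by symbol start also hold a few symbols outside the family. Some named genes are not reported here. The comparison, the lists and the tests were chosen with earlier results of these data known. The alternatives tried were untransformed percentages, moderation with trend, an offset of 0.1 percentage points, a model of all libraries, centred libraries, blocks of library numbers, merged strands, windows, sites at 10% to 90%, autosomal sites alone, genes with at least 5 sites, medians, levels of 10% and 50%, and each library left out. List counts without library 17, autosomal sites without the chromosome 27 region and centred classes were added after the data were seen. Python 3.11.15 (with scipy 1.17.1, pandas 2.3.3, matplotlib 3.10.9 and numpy 2.4.6) gave the summaries and figures.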

Additional observations from a re-analysis of the deposited data

Results flagged for a closer look

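In 14 of 162 groups of 4 libraries a single library stood apart from the other three by more than Dixon's 95% limit. For unselected, normally distributed values chance gives about 1 in 20 such groups. Most groups here come from named genes and sites, many of them ranked by p, so that rate is no reference for the 14. At the CCT8L2 and PPP1R12B sites the other libraries tied at 100%, where any lower value is flagged. Several of these measures overlap in their sites and are not separate cases. MET_noP library 17 was low in mean methylation of autosomal sites (63.6%, the others 65.4% to 65.7%), in the share of sites above 20% (77.6%, the others 82.9% to 83.4%), in the class at 40% to 60% (46.2%, the others 51.7% to 52.1%) and over sites with a gene (66.6%, the others 68.3% to 68.6%). In MET_noP it was also high in FOXH1 (64.5%, the others 60.4% to 60.9%) and low in ZNF212 (95.8%, the others 96.8% to 97.0%). CON_noP library 24 was high in the class under 20% (11.9%, the others 10.2% to 10.4%), over isolated sites (34.6%, the others 33.1% to 33.2%) and in ENSBTAG00000054515 (93.7%, the others 92.9% to 93.0%), and low at the PPP1R12B site (91.8%, the others 100%).

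CON_noP library 12 was high in CX3CL1 (10.2%, the others 6.92% to 7.45%) and in C25H16orf91 (33.3%, the others 26.4% to 26.99%) and low at the HIRA site (86.5%, the others 96.9% to 97.5%). MET_noP library 29 was low at the CCT8L2 site (96.8%, the others 100%). In CX3CL1 and C25H16orf91 the library that stood apart lay towards the other group in the first and away from it in the second.

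The diet difference differed between the outcomes after correction at 2 sites. The spread between libraries had an interaction of 2.26 percentage points that did so only before correction (exact permutation test, p = 0.0184, adjusted p = 0.275). The site at chr17:63124677 had an interaction of -6.80 in M (limma, adjusted p = 0.0229), with each MET_noP library below each CON_noP library and each MET_P library above each CON_P library. The PSD3 site at chr27:38936982 had an interaction of 5.61 in M (limma, adjusted p = 0.0150), in the opposite direction.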

How the results depend on the processing

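No paired analysis was possible because the columns carry library numbers and not the replicate numbers of the labels. Consecutive library numbers, which no source says mark a shared batch, were used as blocks (12 to 15, 16 to 19, 24 to 27 and 28 to 31) in an alternative that left 0 sites and 0 genes past the threshold in limma, with 10516 sites and 601 genes at an unadjusted p under 0.05. In 4 of 4 blocks 8 of the 15 measures were higher in MET_noP (exact sign-flip test, p = 0.125 each, the smallest possible), among them mean autosomal methylation (by 0.89 to 2.08 percentage points), sites with 10 or more neighbours (1.61 to 3.62) and the chromosome 27 region (4.12 to 13.3).

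With an offset of 0.1 percentage points, 225 sites and 2 genes (NDC1 and ENSBTAG00000053179) passed, and at all 225 sites every library of 1 group was at 100%. Without CON_noP library 12, 1 gene (TSPYL2 on chromosome X) passed. The share of sites at an unadjusted p under 0.05 that were higher was 48.6% with centred libraries, 79.0% for sites at 10% to 90% and 55.2% to 70.6% without 1 library, and that of genes 48.9% centred and 66.6% to 78.9% without 1 library. Without 1 library, 9249 to 14319 sites and 407 to 828 genes had such a p, most without library 17 and fewest without CON_noP library 16, and 0 sites and 0 to 1 genes passed. The difference in mean methylation was then 0.921 to 1.77 percentage points, that at 20% to 40% 1.81 to 5.99, in the chromosome 27 region 7.14 to 12.4, and the spread -0.338 to 1.35, with -0.151 without CON_noP library 24 and -0.338 without 28. With centred libraries the M difference was -0.0155 under 20%, -0.0759 at 80% or more, -0.0141 with and -0.0372 without a gene, -0.111 without neighbours, -0.0437 with 1 to 9, and -0.0088 in AGO2, which was at -0.0135 (without MET_noP library 25) to 0.19 without 1 library. The cause of these changes was not tested. Precision is limited by 4 libraries per group and by a depth that is unknown for single sites and libraries. Absent calls do not show that the diets gave equal methylation.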
